A study of Arabidopsis thaliana with 6 samples.

Results

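The genes described here are 4 small heat shock proteins of 3 organelles: AT5G51440 and AT1G52560 of mitochondria, ATHSP22.0 (AT4G10250) of the endoplasmic reticulum and AT5G37670 of the peroxisome. They were taken by locus from a list of organelle members of the family, and the compartment of each is that list's. Each of the 4 has 1 probe set of its own on the Affymetrix ATH1 array (248434_at, 262148_at, 255811_at and 249575_at), among 13356 genes with such a probe set. All 4 entered the test, with 18227 of 22746 probe sets. The study asked about the role of the respiratory burst, in which NADPH oxidases make reactive oxygen, in the heat tolerance of Arabidopsis thaliana seedlings. It compared the AtrbohB mutant, which carries a dSpm transposon in the NADPH oxidase gene At1g09090, with wild type. Both are in accession Col-0. Seedlings of each genotype were floated on water at 20, 30 or 40 °C, which gives 6 groups of 1 array, each of a pool of 90 plants. The age of the seedlings and the length of the treatment are not given in the labels, and 1 insertion line stands for the mutant.

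Small heat shock proteins are chaperones with a shared alpha-crystallin domain. They form oligomers that bind partly unfolded proteins without using ATP and hold them until HSP70 and HSP100 machines refold them. Most act in the cytosol and nucleus, and plants are unusual in that further members are sent into mitochondria, plastids, the endoplasmic reticulum and peroxisomes. Their genes are nuclear, carry heat shock elements and are classical targets of heat shock factors.

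Values are the authors' scaled signal, a linear intensity. The median signal of an array lay between 38.5 and 44.0. Any signal under 13.7, the 25th percentile over all arrays, was set to that floor before log2 was taken. The leaf genes RCA, LHCB4.1 and LHCB4.2 had signals of 2123 to 4291 on every array. Tissue genes also moved with temperature: LHCB4.1 had 4291 in the mutant and 3992 in wild type at 40 °C, against 2889 and 2493 at 20 °C, and the root gene PYK10 had 789.9 and 849.8, against 2684 and 2587. EXPA7 and EXPA18, of root hairs, had 23.7 to 51.8 on all arrays, and the part of tissue in the changes below was not tested. Array background, per the labels, ran from 63.26 for the mutant at 30 °C to 87.22 for the mutant at 20 °C. The array of the mutant at 40 °C is titled a repeat, without saying of what, and had 1163 outlier cells against 299 to 754 on the others. With pooled whole seedlings, a change in the number of cells of a type and a change in RNA per cell cannot be told apart. Temperature effects compare 2 arrays with 2, 1 of each genotype, in an additive limma model, and p-values were adjusted by Benjamini-Hochberg over all probe sets and called at an adjusted p under 0.05. Nothing repeats a genotype and temperature, so the spread behind these p-values is array noise together with any departure of the genotypes from a shared response.

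All 4 organelle genes were low at 20 °C and high in the heat, but they differed in where they peaked. The mitochondrial gene AT5G51440 was highest at 30 °C, and the other genes had their highest signals at 40 °C in both genotypes. ATHSP22.0 rose by 2.78 on the log2 scale from 20 to 30 °C and by 2.56 from 30 to 40 °C, and AT5G37670 by 3.16 and 2.44. The mitochondrial gene AT1G52560 rose by at least 3.15 and then by 0.56, the second step not a call. The plot of signals by array shows each of the 24 values.

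**Figure D1:**
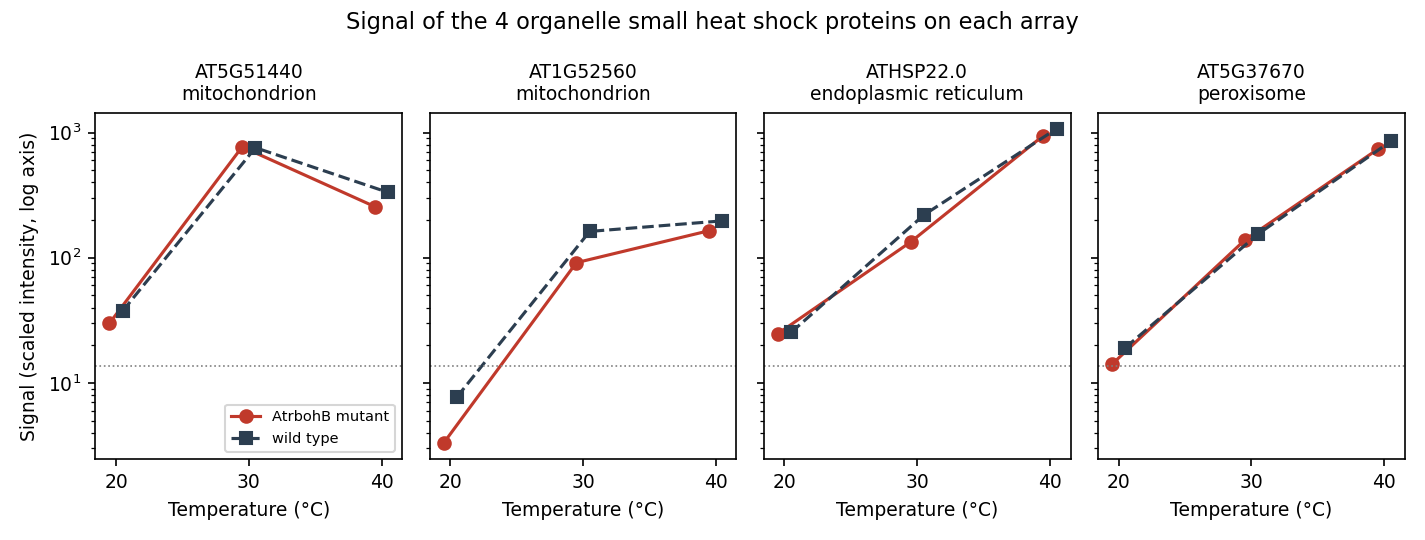
Signal of each gene (scaled intensity, log axis) against temperature (°C), with 1 point per array: circles for the AtrbohB mutant, squares for wild type, and a dotted line at the floor of 13.7. AT5G51440 peaks at 30 °C in both genotypes, AT1G52560 is 1.80-fold higher at 40 than at 30 °C in the mutant and 1.21-fold in wild type, and ATHSP22.0 and AT5G37670 are over 4-fold higher in both.

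AT5G51440, a mitochondrial small heat shock protein, had signals of 29.9, 769.3 and 255.9 in the mutant at 20, 30 and 40 °C. In wild type they were 37.6, 757.6 and 332.6. In both genotypes the signal was highest at 30 °C and lowest at 20 °C. The gene rose 22.8-fold at 30 against 20 °C (log2 change 4.51 ± 0.13, SE, limma adjusted p = 5.41e-07) and 8.70-fold at 40 against 20 °C (3.12 ± 0.13, adjusted p = 2.42e-06). At 40 against 30 °C it fell by 1.39 ± 0.13 on the log2 scale (adjusted p = 9.61e-05), which is 2.62-fold lower. The signal at 30 °C was 301% of that at 40 °C in the mutant and 228% in wild type.

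AT1G52560, the second mitochondrial member, had signals of 3.3, 91.3 and 164.5 in the mutant at 20, 30 and 40 °C, and 7.7, 162.3 and 197.1 in wild type. Both 20 °C arrays were below the floor, so its changes from 20 °C are lower bounds, and it entered the test through its heated arrays alone. It rose at least 8.89-fold at 30 against 20 °C (log2 3.15 ± 0.22, limma adjusted p = 2.64e-05). The rise at 40 against 20 °C was at least 13.1-fold (log2 3.72 ± 0.22, adjusted p = 1.58e-05). Without the floor the deposited signals gave 4.59 and 5.16 on the log2 scale, and with a floor at the 40th percentile 2.13 and 2.69. At 40 against 30 °C the log2 difference was 0.56 ± 0.22, with a 95% interval of 0.06 to 1.07, and did not pass the test (adjusted p = 0.0713). On log2(signal + 16) this difference was 0.50 and was called (adjusted p = 0.0182). Within a genotype the 40 °C signal was the higher in both, by 1.80-fold in the mutant and 1.21-fold in wild type. Its 30 °C signal was 55.5% of the 40 °C signal in the mutant and 82.3% in wild type.

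ATHSP22.0, the endoplasmic reticulum member, had signals of 24.7, 133.5 and 946.1 in the mutant at 20, 30 and 40 °C. The wild-type signals were 25.3, 219.6 and 1074. In both genotypes the signal was higher at each higher temperature. The gene rose 6.85-fold at 30 against 20 °C (log2 2.78 ± 0.17, limma adjusted p = 1.28e-05). From there it rose a further 5.89-fold at 40 against 30 °C (log2 2.56 ± 0.17, adjusted p = 1.61e-05), which brought it to 40.3-fold above 20 °C. Its 30 °C signal was 14.1% of the 40 °C signal in the mutant and 20.4% in wild type.

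AT5G37670, the peroxisomal member, had signals of 14.1, 138.4 and 734.8 in the mutant at 20, 30 and 40 °C, and 19.1, 154.5 and 853.2 in wild type. Again the signal was higher at each higher temperature in both genotypes. It rose 8.91-fold at 30 against 20 °C (log2 3.16 ± 0.13, limma adjusted p = 2.54e-06) and 5.41-fold at 40 against 30 °C (log2 2.44 ± 0.13, adjusted p = 5.82e-06). At 40 against 20 °C the change was 48.2-fold, at rank 15 from the top of the 18227 probe sets, with ATHSP22.0 at rank 17. The mutant's 20 °C signal lay just above the floor, and log2(signal + 16) gave 4.64 in place of 5.59 for this gene at 40 against 20 °C, 2.32 in place of 3.16 at 30 against 20 °C, and 4.64 in place of 5.33 for ATHSP22.0 at 40 against 20 °C.

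Counted together, 4 of 4 genes rose at 30 against 20 °C, where 14.9% of all probe sets tested did, with a median log2 change of 3.15 beside -0.07 for all probe sets. At 40 against 20 °C 4 of 4 rose, against a background of 13.5%, with a median of 4.53 beside 0.08. At 40 against 30 °C 2 rose, where 24.9% of all probe sets did, and 1 fell, where 17.8% did. AT1G52560, below the floor at 20 °C, passed the filter through the heated arrays, so its part in every count and median of change from 20 °C follows from that filter, while the other 3 were above the floor on all 6 arrays. The comparisons share arrays and are not independent of each other. Within single genotypes, each of the 4, AT1G52560 with the same limit, was more than 2-fold higher at 30 than at 20 °C in the mutant, where 7.51% of all those tested reached 2-fold, and in wild type, where 7.71% did. Their rises at 30 °C ran from 5.40-fold to 25.7-fold in the mutant and from 8.09-fold to 20.1-fold in wild type.

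The members also differed in how alike their profiles were. ATHSP22.0 and AT5G37670, of different organelles, had profiles that differed by a root mean square of 0.25 on the log2 scale over the 6 arrays, after each was centred on its mean (Pearson r = 0.995). Among 10170 genes searched, each was the nearest to the other by this measure, and also by Pearson r. The 2 mitochondrial genes were farther apart, at 0.86 (r = 0.891). AT1G52560 was about as far from ATHSP22.0, at 0.87 (r = 0.936), and from AT5G37670, at 0.91 (r = 0.944). AT5G51440 was farthest from ATHSP22.0, at 1.63 (r = 0.689), and lay at 1.59 from AT5G37670 (r = 0.729). All distances from AT1G52560 rest on the floor at its 20 °C arrays and would change with it. The points are 6 arrays that share the temperature steps, so these values are a description.

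Outside the 4, the nearest profiles to AT5G51440 were those of AT5G25450, a subunit of mitochondrial respiratory complex III (0.41), AT5G62280 (0.46) and Hop3, a cochaperone that links HSP70 and HSP90 (0.51). The nearest to AT1G52560 were AT1G30070 (0.28), the small heat shock protein AT1G54050 (0.41) and AT1G66090 (0.47). For ATHSP22.0, the genes after AT5G37670 were AT3G10020 and AT1G30070, both at 0.81, and for AT5G37670, after ATHSP22.0, the same genes followed at 0.71 and 0.81. The step from the nearest gene to the next was thus from 0.25 to 0.81 for ATHSP22.0. By Pearson r, which ignores the size of a change, the genes listed next to AT5G51440 and AT1G52560 were all different from these.

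Of 17 other small heat shock proteins, mostly of the cytosol and nucleus, 7 had a probe set listed for them alone. The listed organelle members AT4G25200, AT4G27670 and AT1G06460, of mitochondria, plastids and peroxisomes, were not among the 7, so the genes most like the members were not compared. At 40 against 30 °C the log2 changes of the 7 ran from -2.81 for AT4G21870 to 1.18 for AT5G47600. The 2.56 of ATHSP22.0 (95% interval 2.17 to 2.95) and the 2.44 of AT5G37670 (2.13 to 2.74) were the largest of the 11 small heat shock proteins with such a probe set. AT5G47600, whose 30 °C signals of 13.1 in the mutant and 9.1 in wild type were below the floor, had an interval of 0.66 to 1.69. The difference between genes in this step was not tested. The abundant cytosolic AT2G29500 had -0.03 at this step, not a call, and AT1G53540, also cytosolic, 0.31, a call that quantile normalization and median centring ended. AT2G19310 rose by 0.94, and AT1G54050 and AT5G54660 had 0.45 and 0.65, neither called. AT4G21870 fell by 2.81, so AT5G51440 was not alone among small heat shock proteins in peaking at 30 °C. In all, 5 of the 7 rose at 30 against 20 °C (median 2.51), where 14.9% of all probe sets did. At 40 against 20 °C 5 rose (median 3.02), where 13.5% did. At 40 against 30 °C 3 rose, where 24.9% did, and 1 fell, where 17.8% did (median 0.45). AT1G53540, below the floor at 20 °C, passed the filter through its heated arrays. Its part in the counts and medians of change from 20 °C follows from that filter.

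**Figure D2:**
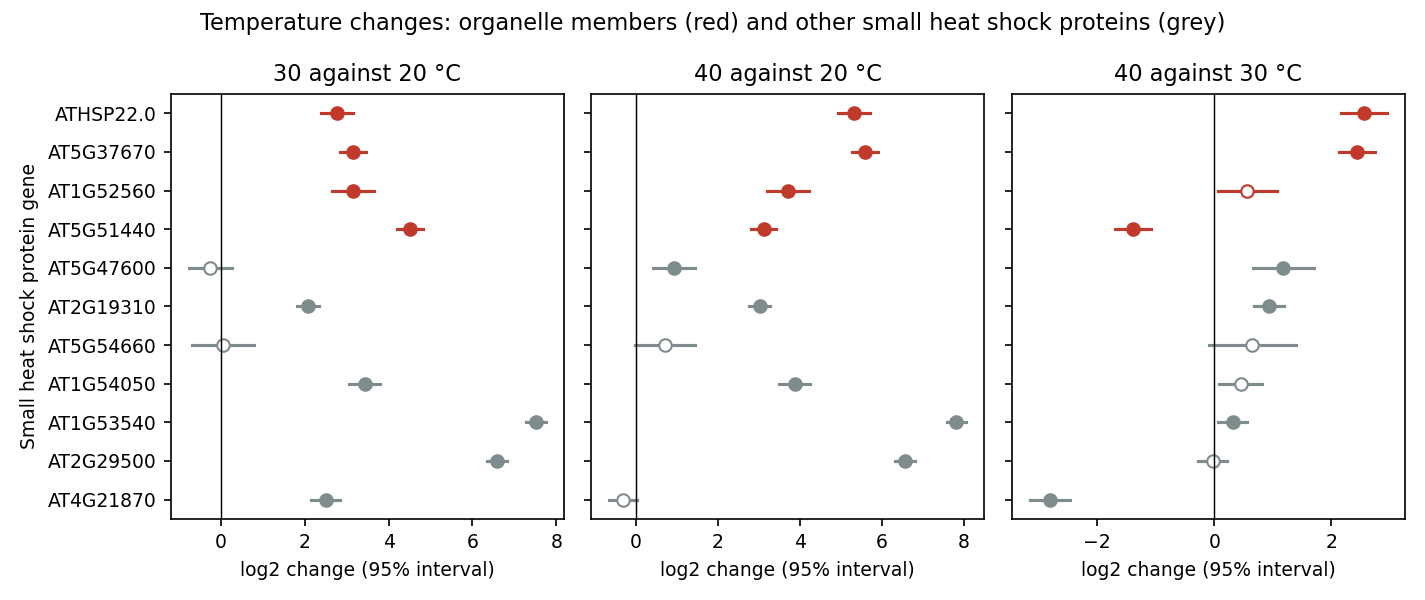
Log2 change between temperatures (point) with its 95% interval (line) from the additive limma model, 2 arrays against 2, for the organelle members (red) and 7 other small heat shock proteins (grey); filled points passed an adjusted p under 0.05. At 40 against 30 °C ATHSP22.0 and AT5G37670 lie farthest right, and AT5G51440 and AT4G21870 lie left of 0; values from 20 °C are lower bounds for AT1G52560 and AT1G53540, and AT5G47600 was below the floor at 30 °C.

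The rise of ATHSP22.0 was set beside 23 other chaperone, folding and stress genes of the endoplasmic reticulum. Of these, 6 had a probe set listed for that gene alone, which is what measured means here and below. The 6 include transcription factors and not BiP, so they do not stand for the chaperones of this organelle. At 40 against 20 °C none of the 6 rose, where 13.5% of all probe sets did, and 1 fell, where 14.7% did, which for 6 genes is near the background. Their median was 0.05, which centring turned to -0.02. Quantile normalization called 1 higher, AT5G07340 (0.59, limma adjusted p = 0.0435). The fall was of ATERDJ2A, a DnaJ protein of protein import (-0.79 ± 0.13). AT5G07340, a calnexin, had 0.58 (limma adjusted p = 0.0556), ATERDJ3B, a DnaJ partner of BiP, had -0.38 and BZIP28, a membrane-bound stress transcription factor, had 0.17, none a call. At 30 against 20 °C 2 of the 6 rose, BZIP28 by 1.58 and ATERDJ3B by 0.90, and CRT1b, a calreticulin, fell by 0.37, a call that centring ended. From 30 to 40 °C, the step at which ATHSP22.0 rose by 2.56, BZIP28 fell by 1.41, ATERDJ3B fell by 1.28 and ATERDJ2A fell by 0.56. At that step AT5G07340 (0.67) and CRT1b (0.36) rose, calls that centring ended.

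**Figure D3:**
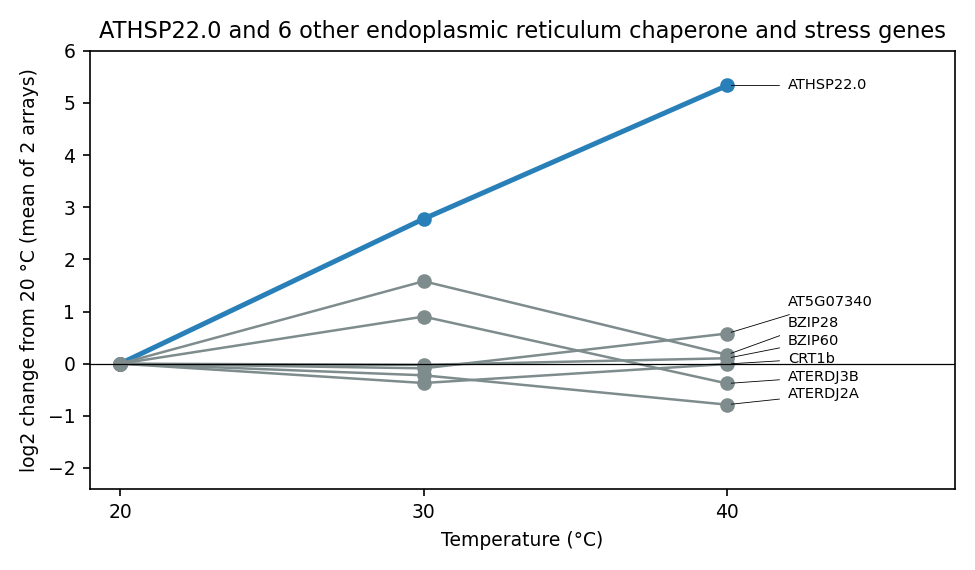
Log2 change from 20 °C (mean of 2 arrays, 1 per genotype) at 30 and 40 °C for ATHSP22.0 (blue) and 6 other endoplasmic reticulum chaperone and stress genes (grey). ATHSP22.0 reaches 5.33 at 40 °C while the others lie between -0.79 and 0.58. BiP is not among the 6.

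The other compartments could be compared less fully. Of 17 mitochondrial chaperones and proteases 1 was measured: NCLPP7, the proteolytic subunit of the Clp protease, had signals of 190.8 in the mutant and 185.5 in wild type at 40 °C, against 215.9 and 220.3 at 20 °C (log2 -0.21, limma adjusted p = 0.186). At 30 against 20 °C NCLPP7 fell by 0.40, a call that centring ended. Of 18 peroxisomal genes and 21 heat shock factors, 0 had a probe set listed for that gene alone and they were not analysed here. The platform annotation listed no gene for 8730 probe sets, so the array may still hold probe sets for genes counted here as not measured. Of 9 plastid chaperones 1 was measured, Cpn60beta2, a chaperonin subunit, which rose by 1.06 at 30 °C and 1.49 at 40 °C against 20 °C.

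The list of cytosolic HSP70, HSP90, HSP101 and cochaperones, which are of another compartment than the 4 members, had 8 of 19 genes measured. These were HSP70 genes and cochaperones, so the counts say nothing of HSP90 or HSP101. At 30 against 20 °C 7 rose (median 1.90), where 14.9% of all probe sets did. At 40 against 20 °C 7 rose (median 1.18), where 13.5% did. At 40 against 30 °C 5 fell, where 17.8% of all probe sets did, and 1 rose, where 24.9% did, with a median of -0.56. AT5G48570, an FKBP cochaperone, fell by 1.02 at that step, Hop3 fell by 0.59 and Hsp70-2 fell by 0.54, while AT2G20560, a DnaJ protein, rose by 0.86. Like AT5G51440, Hop3 and AT5G48570 thus had their highest signals at 30 °C, with 1269 and 2935 in the mutant and 1287 and 2500 in wild type.

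Averaged over the temperatures, the organelle genes differed by less between the AtrbohB mutant and wild type than between 20 °C and either higher temperature. No genotype term exceeded 0.36 in size, and no change from 20 °C was under 2.78 on the log2 scale. The deposited signal was lower in the mutant in 11 of 12 pairs of arrays of 1 gene at 1 temperature; the exception was AT5G51440 at 30 °C, with 769.3 in the mutant and 757.6 in wild type. Of the 11, AT1G52560 at 20 °C has both signals below the floor, and so no difference once they are raised to it. Among all probe sets tested, 44.4% at 20 °C, 53.9% at 30 °C and 47.3% at 40 °C were lower in the mutant after the floor. In these shares a pair with both signals below the floor counts as not lower, unlike in the 11 of 12. The 12 pairs of values come from the same 6 arrays. Over the 3 temperatures the genotype term was -0.23 ± 0.11 for AT5G51440, -0.36 ± 0.18 for AT1G52560, -0.31 ± 0.14 for ATHSP22.0 and -0.27 ± 0.11 for AT5G37670 (log2, SE, 3 arrays against 3). None passed limma's test over all probe sets (adjusted p = 0.978 for each), and 0% of the 18227 probe sets were called. At an unadjusted p under 0.05 limma gave 735 probe sets, 4.03% of those tested, with AT5G37670 among them. The genotype term was below 0 for 4 of 4 genes and for 51.9% of all probe sets tested. The 95% intervals ran from -0.48 to 0.02, -0.78 to 0.05, -0.63 to 0.01 and -0.52 to -0.02 in the same order of genes, so a mutant level lower by up to 0.78 on the log2 scale lies within the widest of them. The same 6 arrays give the 4 values, and the genes are not replicates of the genotype.

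At 40 °C all 4 were lower in the mutant by single arrays: AT5G51440 by 23.1%, AT1G52560 by 16.5%, AT5G37670 by 13.9% and ATHSP22.0 by 11.9%. These differences, of -0.18 to -0.38 on the log2 scale, lay inside the middle 95% of all probe sets at that temperature, which ran from -0.76 to 0.68. None of the 4 reached 2-fold, where 1.09% of probe sets were at least 2-fold lower in the mutant. At 30 °C, AT1G52560 was at 91.3 in the mutant and 162.3 in wild type, a difference of -0.83. ATHSP22.0, at 133.5 in the mutant and 219.6 in wild type, differed by -0.72. Both lay below the middle 95% of all probe sets, -0.69 to 0.47, and 1.15% and 2.08% of probe sets were as low or lower. AT5G37670 (-0.16) and AT5G51440 (0.02) lay within it. The mutant array at 30 °C had the lowest background (63.26) and noise (3.59) of the 6. On it 53.9% of the probe sets tested were below wild type after the floor, against 44.4% at 20 °C and 47.3% at 40 °C. The part of this array in these differences was not tested.

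**Figure D4:**
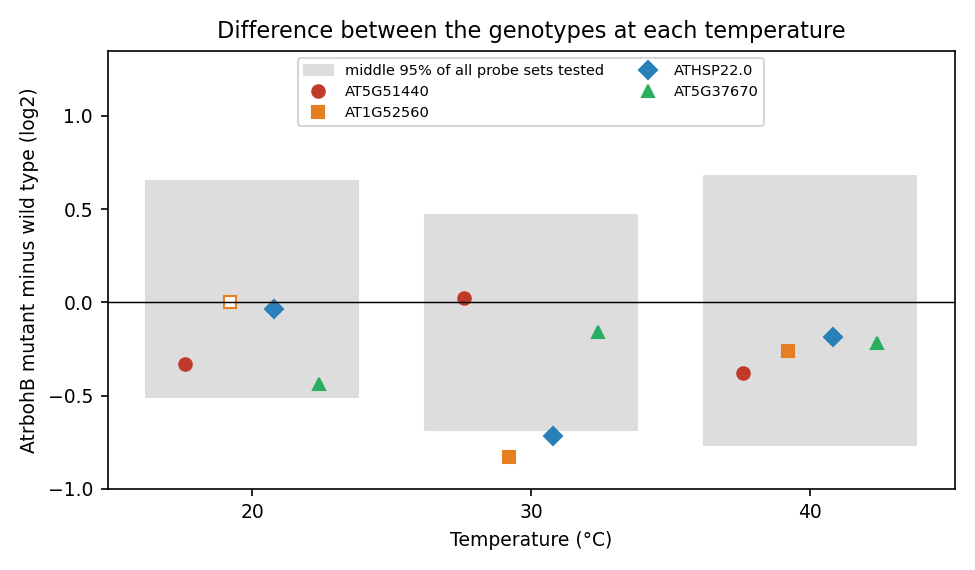
AtrbohB mutant minus wild type (log2 signal, 1 array each) at each temperature (°C) for the 4 genes, over the middle 95% of all 18227 probe sets tested (grey); the open square is AT1G52560 at 20 °C, where both arrays are below the floor. AT1G52560 (-0.83) and ATHSP22.0 (-0.72) at 30 °C lie below the grey band, and the other points lie inside it.

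Each genotype on its own gave the following responses to heat. At 40 against 20 °C AT5G37670 was 52.1-fold higher in the mutant and 44.7-fold in wild type, ATHSP22.0 38.3-fold and 42.5-fold, and AT5G51440 8.56-fold and 8.85-fold. For AT1G52560, both values are lower bounds, at least 12.0-fold in the mutant and at least 14.4-fold in wild type. From 30 to 40 °C the mutant rose more for ATHSP22.0, 7.09-fold against 4.89-fold in wild type, and for AT1G52560, 1.80-fold against 1.21-fold, both from lower signals at 30 °C, while AT5G37670 had 5.31-fold in the mutant and 5.52-fold in wild type. The differences of 0.53 and 0.57 on the log2 scale for the first pair of genes lay inside the middle 95% of all probe sets, -0.85 to 0.96. AT5G51440 was 3.01-fold lower at 40 than at 30 °C in the mutant and 2.28-fold lower in wild type. With 1 array per group, a difference between the genotypes in these responses has no test.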

How the data were processed

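Total RNA of pooled seedlings was labelled with biotin and hybridised to 1-colour Affymetrix ATH1 arrays, per the labels. The authors deposited a linear intensity for each of 22810 probe sets; each column has a trimmed mean of 100.01, so they had scaled the arrays. The summary method and software are not given in the sources used here. Control probe sets (64) were left out. The platform annotation gave 1 gene for 13513 probe sets, several for 503 and none listed for 8730; names were updated through RefSeq (assembly TAIR10.1), which matched 13436. The probe set with the highest mean stood for a gene.

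Signals were raised to the floor (13.7), and probe sets above it on at least 2 arrays were fitted with limma 3.58.1 in R 4.3.3 (genotype plus temperature, eBayes with trend, 2 residual and 6.08 prior degrees of freedom, two-sided). The number of arrays limits the precision. Figures used matplotlib 3.10.9. Named were all members, the 3 nearest profiles to each, all other measured small heat shock proteins and up to 4 genes of each further list by change at 40 °C; CRT1b was added after its values were seen. The members and lists were chosen with earlier results of these data known. Alternatives covered normalization, floor, pseudocount, filter, variance prior and leaving out each array. No sequence was used here.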

Additional observations from a re-analysis of the deposited data

Results flagged for a closer look

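For AT5G51440 the difference between the AtrbohB mutant and wild type had opposite signs at different temperatures: the mutant was at -0.33 (log2) at 20 °C, 0.02 at 30 °C and -0.38 at 40 °C. The value at 30 °C exceeded that at 20 °C by 0.35, and the value at 40 °C was below that at 30 °C (-0.40). The value at 30 °C is near 0, with signals of 769.3 in the mutant and 757.6 in wild type, and both shifts lie inside the middle 95% of all probe sets, -1.02 to 0.68 and -0.85 to 0.96. Each rests on 1 array per group and the difference was not tested.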

How the results depend on the processing

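All calls of the 4 genes between temperatures kept their direction and their side of the threshold under quantile normalization, median centring, both other treatments of low signals, the pseudocount, both other variance priors and without each array, with 1 addition, AT1G52560 at 40 against 30 °C on log2(signal + 16). The filter on all 6 arrays left AT1G52560 untested. Without 1 array the log2 change of AT5G51440 at 40 against 30 °C ran from -1.58 to -1.20, that of ATHSP22.0 from 2.25 to 2.86, that of AT5G37670 from 2.35 to 2.52 and that of AT1G52560 from 0.22 to 0.91. The genotype term stayed below 0 and uncalled for each gene under every alternative run, but its size moved: for AT1G52560 it was -0.77 without floor and filter and ran from -0.55 to -0.13 without 1 array, for ATHSP22.0 from -0.45 to -0.11, for AT5G51440 from -0.35 to -0.15 and for AT5G37670 from -0.33 to -0.19. For all probe sets, the count called without 1 array ran from 2089 to 4340 at 30 against 20 °C (6480 with all arrays), from 822 to 2800 at 40 against 20 °C (5130) and from 2783 to 6653 at 40 against 30 °C (7781), with 1 residual degree of freedom. The lowest of these came without the mutant at 30 °C, wild type at 40 °C and the mutant at 40 °C, in that order of comparisons, and leaving out any of the 6 arrays moved at least 1 of the counts by over 1.5 times. Without floor and filter 2675 were called at 40 against 20 °C. Between the genotypes, the pseudocount and the filter on all arrays each called 1 probe set, QQS, which is none of the 4. Centring gave 1737 higher and 2907 lower at 40 against 20 °C in place of 2456 and 2674, and 3214 higher and 3817 lower at 40 against 30 °C in place of 4538 and 3243, where it brought the median of all changes to 0.03 from 0.15. The additive model itself sets the temperatures against each other within a genotype. No group has numbered replicates by which the arrays could be paired further. The promoter motif was not run, as no sequence was used here. Signals near the floor, for the 4 genes at 20 °C and for AT5G47600 at 30 °C, limit the size of the folds given.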
